A study of Mus musculus with 18 samples.

Results

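The 5' UTR peaks were the differential m6A peaks whose deposited annotation was exactly 5' UTR, the stretch of an mRNA before its start codon. They numbered 1699 of 41084 peaks (4.14%) over 4 lists. LPS-up and LPS-down peaks are those higher or lower in the LPS group than in Veh, and Mel-up and Mel-down peaks those higher or lower in the Mel+LPS group than in LPS. The list of LPS-down peaks was complete here for chromosomes 1 to 9 only, and the results below use its 262 5' UTR peaks on those chromosomes, so that 1691 peaks entered the counts. A gene was called the host of a peak only when the centre of the peak lay between the start and the end given for its assigned gene. By that rule 1514 of the 1691 peaks had a host and 177 did not, and the 1514 peaks lay in 1174 host genes. Of these genes, 905 held a single 5' UTR peak, and no gene held more than 7.

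The uterus was taken on day 5 of pregnancy from wild-type female ICR mice of 8 weeks, an outbred strain. The vehicle group (Veh) received saline. The LPS group received lipopolysaccharide, a component of the outer membrane of Gram-negative bacteria, at 0.5 mg/kg on days 3 and 4, with vehicle on days 1 to 4. The Mel+LPS group received the same LPS with melatonin at 10 mg/kg, given on days 1 to 4, and on the LPS days 30 min before LPS. Each of the 3 treatments had 3 replicates, each with an input and an immunoprecipitated (IP) library, which makes 18 libraries. Both comparisons used the same LPS libraries, so they are not independent of each other. Whole uterus holds stroma, epithelium, muscle and leukocytes, and of the markers chosen for these tissues 8 of 10, 7 of 10, 9 of 10 and 6 of 13 were assigned a peak of any kind. More cells of a type and more methylation per transcript cannot be told apart in such tissue.

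N6-methyladenosine (m6A) is the methylation of internal adenosines in mRNA. It is laid down by a METTL3 and METTL14 complex, mostly in the sequence DRACH (where H stands for A, C or T, R for either purine and D for any base but C), and is read by proteins such as those of the YTH family. Most of it lies near stop codons and in 3' UTRs. In 5' UTRs it is known for its link to cap-independent translation initiation, first described for heat shock transcripts, and antibodies against m6A also bind m6Am, the methylated adenosine next to the cap of many mRNAs. The peaks described here cannot separate these modifications.

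Among the highest scoring 5' UTR peaks, a DRACH match was chosen in 15, and in 7 of these it lay before the start codon of the GENCODE transcript. In the other 8 (Sel1l3, Tlr8, Trit1, Kat6b, Bnc2, Cc2d2a, Pms2 and Dennd2c) it lay in coding sequence, so the sequences shown do not stand for all such peaks. Each sequence below is 25 bases of the GENCODE M21 transcript (GRCm38), 5' to 3', with a DRACH match in capitals. Within a peak GGACT was taken before another GGAC, and that before any other match, and of equals the match nearest the centre. They are shown because their peaks are among the highest scoring of the list they stand in, or of the sites found in both comparisons, and because the match lies before the start codon of that transcript.
Bmp6: ctgagtgccaGGACCgggaagagag
Gpr85: cggtttctggAAACCtttgcaaagc
Zfp810: gaaatcctcaTGACAtactacttcc
Bmp2: acgcgcggctGGACTgtctcgagaa
Arhgap21: ttgaactttaAGACTggagaaatga
Btbd3: cacatcttgcTAACCtaattcagaa
Haus3: cttcttctatGGACTtagcgtaaat
The Bmp6 stretch (chr13:38345793-38345817, plus strand) and the Gpr85 stretch (chr6:13838352-13838376, minus strand) came from LPS-up peaks. Those of Zfp810 (chr9:22305556-22305580, minus strand), Bmp2 (chr2:133552672-133552696, plus strand) and Arhgap21 (chr2:20967583-20967607, minus strand) came from LPS-down peaks. Those of Btbd3 (chr2:138278569-138278593, plus strand) and Haus3 (chr5:34168389-34168413, minus strand) came from Mel-up peaks. The A of the match lay 128 bases before the start codon in Bmp6, 256 in Gpr85, 251 in Zfp810, 675 in Bmp2, 185 in Arhgap21, 327 in Btbd3 and 88 in Haus3. GGAC, the commonest core of methylated sites, is present in Bmp6, Bmp2 and Haus3 and absent from the other 4 matches. A match is a description of the sequence and not a mapped methylated base. Matches were sought within the peaks as deposited, without the move of 100 bases toward the 5' end that is described below. Such a move could leave a chosen match outside its peak.

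The tables give a single score per peak and comparison, above 1 in every peak. The deposited column has no name. The peak caller's comparison step writes a log10 likelihood ratio at this place, in which a higher score stands for stronger evidence of a difference, and it is read so here. There are no values per replicate, so no replicate error can be given for any peak, and the sequencing depth is unknown here. The percentages below carry 95% Wilson intervals, which cover counting error only and treat peaks as separate although some share a gene.

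LPS vs Veh asks which transcripts gained or lost m6A signal in the uterus after LPS, and 421 5' UTR peaks were up, in 357 host genes. They made up 3.50% (3.19 to 3.85) of the 12023 LPS-up peaks. The 262 peaks that were down, in 214 host genes, made up 4.19% (3.72 to 4.71) of 6259 peaks on chromosomes 1 to 9. On those chromosomes 217 of 479 5' UTR peaks were up, or 45.3% (40.9 to 49.78), beside 49.8% of all peaks (49.84), a value just outside the interval. The direction of this difference did not hold throughout, since peaks classed by GENCODE in place of the deposited annotation gave 57.5% of 87. First exon peaks, which lie nearest to 5' UTR peaks in the gene, were up in 36.5% (32.5 to 40.8) and 3' UTR peaks in 48.8% (46.9 to 50.7). Among 5' UTR peaks the share that was up was 39.2% (32.5 to 46.3) at scores of 1 to 2 and 55.1% (43.4 to 66.2) at scores of 6 or more, where all peaks had 47.4% and 53.6%. The intervals of these bands overlapped.

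Mel+LPS vs LPS asks which transcripts changed when melatonin was given with LPS, and here 5' UTR peaks were mostly up. There were 765 up, in 628 host genes, and 243 down, in 213 host genes. They formed 5.69% (5.31 to 6.10) of the 13436 peaks that were up and 2.64% (2.33 to 2.99) of the 9211 that were down. Of the 1008 5' UTR peaks, 75.9% (73.2 to 78.4) were up, beside 59.3% of all peaks, and on chromosomes 1 to 9 the shares were 75.3% and 60.0%. Peaks of other exons stood at 74.9% (73.9 to 75.8), so the high share was not particular to the 5' UTR. First exon peaks stood at 68.9% (66.2 to 71.5), 3' UTR peaks at 55.5% (54.1 to 56.9), promoter peaks at 53.2% (50.9 to 55.6) and first intron peaks at 32.2% (29.2 to 35.4). The 5' UTR share stayed above that of all peaks in each score band, with 79.4% against 64.9% at scores of 1 to 2 and 66.2% against 54.7% at 6 or more.

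**Figure D1:**
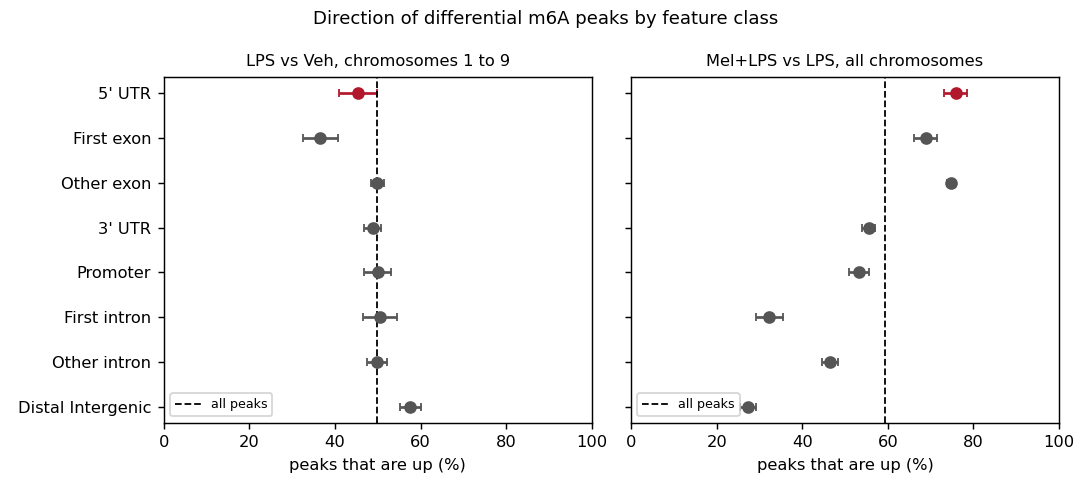
Percent of differential peaks that were up, by annotated feature class, in LPS vs Veh on chromosomes 1 to 9 (left) and in Mel+LPS vs LPS on all chromosomes (right). Points are percentages, bars are 95% Wilson intervals and dashed lines are all peaks; 5' UTR peaks (red) lie at 45.3% on the left, near the line, and at 75.9% on the right, beside other exons and above the line at 59.3%.

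The median score was 2.80 among LPS-up peaks (all peaks 2.88), 2.27 among LPS-down peaks (2.65), 2.32 among Mel-up peaks (2.17) and 3.36 among Mel-down peaks (3.09). With only the highest 5' UTR peak of each gene and list, beside the highest peak of any class, the medians were 3.001 (any class 3.78), 2.34 (3.28), 2.37 (2.56) and 3.54 (3.85) in the same order. The 5' UTR value was then the lower one in each list. The highest peak of any class is chosen from more peaks per gene, which raises its median by construction. The lower 5' UTR values therefore cannot be read as a difference between the classes. A score of at least 3 was reached by 203 (48.2%), 103 (39.3%), 274 (35.8%) and 127 (52.3%) of them, beside 48.7%, 45.9%, 32.7% and 50.8% of all peaks. Many peaks carried exactly the same score. The value 3.78494 stood at 34 of the 421 5' UTR LPS-up peaks, Tet2 and Atm among the hosts, and at 1450 peaks of that list in all. In the same way 3.63445 stood at 21 of the 262 LPS-down peaks, 5.42348 at 19 of the 765 Mel-up peaks and 3.85169 at 22 of the 243 Mel-down peaks. Scores held by 10 or more peaks of a list accounted for 10.9%, 10.3%, 3.53% and 15.6% of the 5' UTR peaks of the 4 lists, and for 15.6%, 14.6%, 4.44% and 18.96% of all peaks. Without them 44.7% of 425 5' UTR peaks were up in LPS vs Veh (all peaks 49.5%) and 78.3% of 943 in Mel+LPS vs LPS (63.2%). Ties of this kind do not rank genes against each other.

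**Figure D2:**
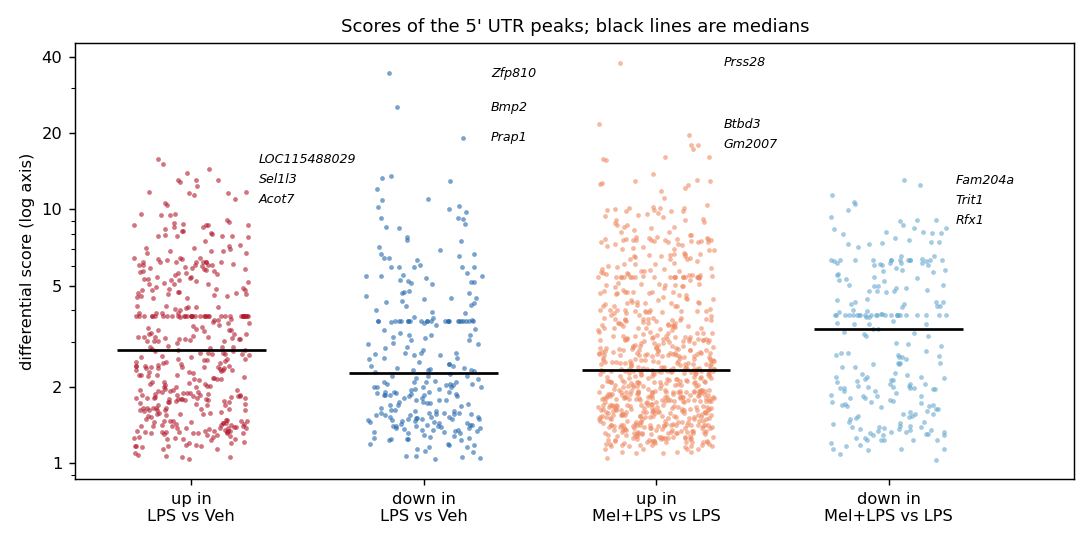
Differential score (log axis) of each of the 1691 5' UTR peaks, by list, with the median as a black line and the 3 host genes of the highest scores named beside each list. The highest points are Prss28 at 38.0 and Zfp810 at 34.4, and the horizontal rows of points, such as the one at 3.78494 on the left, are peaks that share exactly the same score.

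Among the 5' UTR LPS-up peaks, the 5 highest scores stood in LOC115488029, Sel1l3, Acot7, Bmp6 and Tlr8. LOC115488029 (15.7, chr12:19246643-19247369) is a predicted locus. Sel1l3 had 15.2 (chr5:53200055-53200254), and an overlapping peak was down in Mel+LPS vs LPS at 1.98. Acot7, an acyl-CoA thioesterase, had 14.4 (chr4:152199938-152200088), 70 bases from the transcription start, and 6.57 for the overlapping Mel-down peak. Bmp6, a growth factor of the bone morphogenetic protein family, had 13.9 (chr13:38345792-38345926). Its 5' UTR had no listed peak in Mel+LPS vs LPS. Tlr8, an endosomal receptor for single-stranded RNA, had 13.1 at chrX:167245472-167245671 and 5.26 at chrX:167243754-167244525. Both Tlr8 peaks lay far from the transcription start of the gene as deposited, 13868 bases for the higher one, and the DRACH match nearest the centre of that peak lay in the coding sequence of the GENCODE transcript.

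The 5' UTR LPS-down peaks included genes of the pregnant uterus. Zfp810, a zinc finger protein, had the highest score, 34.4 (chr9:22305457-22305667), while 3 peaks of other classes in the same gene were up, at 1.35 to 2.84. Bmp2, a growth factor that stromal cells need to decidualise, had 25.3 (chr2:133552477-133552755). Its other 3 peaks in that list, at 11.6, 19.98 and 11.9, were also down, and its 5' UTR was up in Mel+LPS vs LPS at 5.65 (chr2:133552582-133552711). Prap1, a proline-rich acidic protein made by uterine epithelium in pregnancy, had 19.2 (chr7:140093428-140093643), 32 bases from the transcription start. Its 4 further peaks were down as well, at 15.1 to 26.8, and none of its peaks was listed in Mel+LPS vs LPS. Arhgap21, a GTPase-activating protein, had 13.5 (chr2:20967469-20967651). Trit1, a tRNA-modifying enzyme, had 13.3 (chr4:123039489-123039666), and a separate 5' UTR peak of Trit1 was down in Mel+LPS vs LPS at 12.5 (chr4:123016761-123016910).

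In Mel+LPS vs LPS the highest 5' UTR score of all was 38.0, in Prss28, the serine protease known as implantation serine proteinase 1, which uterine glands secrete (chr17:25308784-25308902, 138 bases from the transcription start). The 2 other Prss28 peaks, in a later exon and in the 3' UTR, were up too, at 20.5 and 24.0. Btbd3, a BTB domain protein, had 21.7 (chr2:138278529-138278688). The predicted gene Gm2007 had 18.02 (chr2:175748660-175748871). Rbl1, the retinoblastoma relative p107, had 17.99 (chr2:157191781-157191970), and Haus3, a subunit of the augmin complex of the mitotic spindle, had 17.3 (chr5:34168257-34168457). Rbl1 and Haus3 were both down at the same place in LPS vs Veh, at 12.1 and 5.20. Gm2007 also had an LPS-down peak within its Mel-up peak, at 5.95 (chr2:175748722-175748839), but annotated to an intron.

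Scores among the Mel-down peaks were lower at the top. Fam204a led with 13.1 (chr19:60224720-60224865), followed by Trit1 with 12.5. Rfx1, a transcription factor of the regulatory factor X family, had 11.5 (chr8:84064406-84064517), and the identical interval was up in LPS vs Veh at 4.54. Zfp950 had 10.7 (chr19:61122235-61122403). Gtf2a1, a subunit of the general transcription factor TFIIA, had 10.5 (chr12:91586559-91586739).

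The gene sets and their directions were then compared over the lists. Of the 421 5' UTR LPS-up peaks, 110 (26.1%, 22.2 to 30.5) overlapped a Mel-down peak by at least 1 base, beside 38.5% of all peaks of that list. From the other side, 112 of 243 (46.1%, 39.9 to 52.4) overlapped, beside 50.6%. Of the 262 LPS-down peaks, 94 (35.9%, 30.3 to 41.9) overlapped a Mel-up peak, beside 30.3%, and from the other side 95 of 397 on chromosomes 1 to 9 (23.9%, 19.995 to 28.4), beside 26.5%. Overlaps of the same direction were few. There were 9 between the lists of peaks that were up, which is 2.14% of 421 peaks (all peaks 2.25%) and 1.18% of 765 (2.02%). There were 0 of 262 between the lists of peaks that were down on chromosomes 1 to 9, an interval of up to 1.45%, beside 0.799% of all peaks, and 0 of 130 from the other side, beside 1.06%. The LPS libraries stand in both comparisons, and these counts are a description.

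Overlapping 5' UTR peaks on both sides gave 105 sites that were both LPS-up and Mel-down, of which 23 had identical intervals and 42 reached a score of 3 in both. Fam204a had 12.9 in LPS vs Veh and 13.1 in Mel+LPS vs LPS over one identical interval. Kat6b, a histone acetyltransferase, had 9.61 and 9.93 (chr14:21628858-21629106), and Gpr85, an orphan receptor, had 9.54 and 9.06 (chr6:13838263-13838462). Lpin2, a phosphatidate phosphatase, had 8.71 and 8.04, and Slc27a6, a fatty acid transporter, had 8.02 and 8.10. In these 5 genes the scores of the comparisons were nearly equal. They were named because the lower score of the pair was high, a choice that favours pairs of similar scores. Sel1l3, Acot7 and Rfx1, described above, were sites of this kind with less similar scores.

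The reverse pattern, LPS-down and Mel-up, was found at 83 sites, of which 22 reached a score of 3 in both and 0 had identical intervals. Rbl1 had 12.1 in LPS vs Veh and 17.99 in Mel+LPS vs LPS. Bnc2, a zinc finger protein of the basonuclin family, had 11.04 and 13.1 (chr4:84546173-84546367 in LPS vs Veh). Cc2d2a, a protein of the ciliary transition zone, had 8.54 and 7.72 (chr5:43685317-43685417). Pms2, a DNA mismatch repair protein, had 13.0 and 6.07 (chr5:143925987-143926175), and Dennd2c, an activator of Rab GTPases, had 5.46 and 6.08 (chr3:103132234-103132406). In Bmp2 the scores were the least alike of these genes, 25.3 and 5.65.

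**Figure D3:**
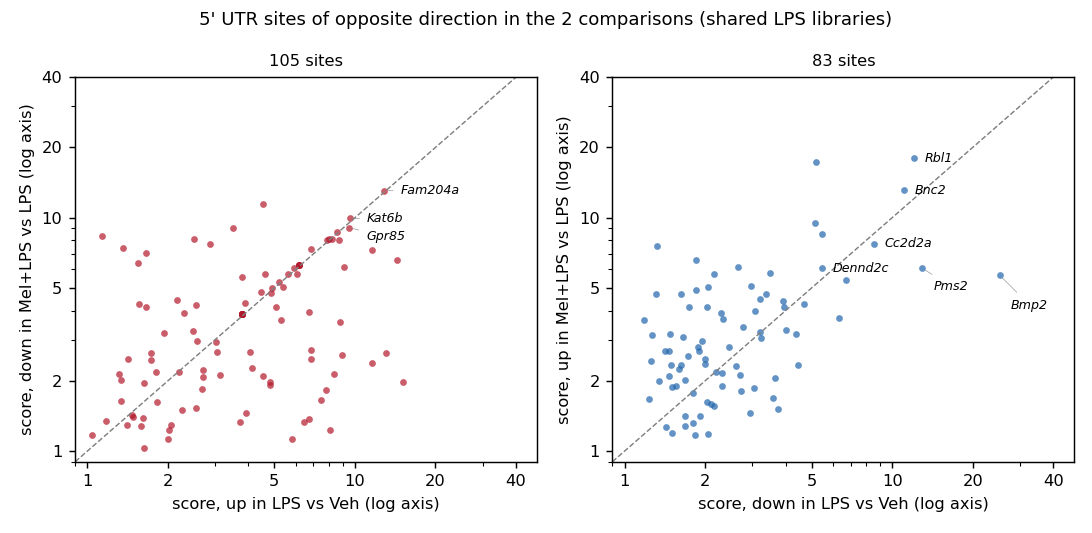
Scores (log axes) of 5' UTR sites with overlapping peaks of opposite direction, 105 LPS-up and Mel-down sites (left) and 83 sites with the reverse pattern (right). Dashed lines mark equal scores. Fam204a, Kat6b and Gpr85 lie near the line, while Bmp2 lies far to the right of it with 25.3 against 5.65. The named genes were chosen by the lower score of each pair, which favours points near the line.

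By gene, 952 of the 1174 host genes stood in 1 list, 207 in 2, 14 in 3 and 1, Cc2d2a, in all 4. Genes beyond chromosome 9 could not stand in the LPS-down list. On chromosomes 1 to 9 the counts were 530, 136, 13 and 1 of 680. The LPS-up and Mel-down lists shared 98 host genes, which is 27.5% of the first and 46.0% of the second. On chromosomes 1 to 9 the LPS-down and Mel-up lists shared 82, or 38.3% and 24.9%. In the same direction, the LPS-up and Mel-up lists shared 32 host genes (8.96% and 5.10%). The LPS-down and Mel-down lists shared 12 on chromosomes 1 to 9 (5.61% and 10.5%). The same counts were not made for genes with peaks of other classes, so these shares have no background. Some genes held 5' UTR peaks of both directions in a single comparison, 10 in LPS vs Veh on chromosomes 1 to 9 and 21 in Mel+LPS vs LPS. In LPS vs Veh these included C030002A05Rik (3.78 up, 3.63 down) and Asap3, an Arf GTPase-activating protein (7.04 up at chr4:136228431-136228630, 3.63 down at chr4:136214834-136214966). In Cc2d2a the LPS-down peak was followed by one that was up at 2.66 (chr5:43687941-43688386), and in Mel+LPS vs LPS the gene had 7.72 up and 3.25 down (chr5:43696553-43696789). In Mel+LPS vs LPS, Celf2, an RNA-binding splicing regulator, had 7.52 up and 5.04 down. Mga, a partner of MAX, had 15.6 up at chr2:119917084-119917283 next to 5.34 down at chr2:119916795-119916955. These pairs were separate sites within 1 gene, so the host gene alone does not give a direction.

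The other genes with 5' UTR peaks in 3 lists showed the same mixture. Plk4, the kinase that starts centriole duplication, had 9.56 up (chr3:40802029-40802219) and 3.85 down (chr3:40801856-40801973) in Mel+LPS vs LPS, beside an LPS-down peak at 2.94. Npas4, an activity-dependent transcription factor, had an LPS-up peak at 1.81 (chr19:5000071-5000431), which overlapped both a Mel-down peak at 2.18 (chr19:5000054-5000177) and a Mel-up peak at 1.26 (chr19:5000308-5000451). Stag1, a cohesin subunit, had LPS-down peaks at 7.75 and 1.35, a Mel-up peak at 2.01 and a Mel-down peak at 6.29. Asdurf, a small protein read from an upstream open reading frame of the Asnsd1 transcript, had an LPS-down peak at 3.10, a Mel-up peak at 3.08 and a Mel-down peak at 3.97, at 3 separate places. Brsk1 (a kinase), Taok2 (a kinase), Fut10 (a fucosyltransferase), Sltm, Tbc1d14, Zfp30, Zfp638 and Rfx1 were the remaining genes, with scores between 1.37 for the lowest peak of Zfp638 and 13.1 for Brsk1 up in LPS vs Veh.

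Peaks of other classes in the host genes were also compared, since a change along the whole transcript would appear there. Among host genes of Mel-up peaks, 57.3% of 628 had a peak of another class in the same list. In the opposite list 28.5% had a peak of any class, and 31.5% had neither. Further peaks of the same class in the same list were not counted, so a gene can hold several and still count as neither. For Mel-down peaks the percentages were 41.8%, 44.6% and 32.4% of 213. On chromosomes 1 to 9 they were 48.9%, 31.9% and 37.8% of 188 genes for LPS-up peaks and 45.8%, 37.4% and 33.6% of 214 for LPS-down peaks. The same count for genes with a peak of another class gave higher shares with neither, where further peaks of that class were again not counted. They were 62.8 to 76.1% over the 4 lists for genes with a first exon peak, 46.0 to 50.4% with another exon peak and 48.9 to 57.2% with a 3' UTR peak. A peak of a different class in the same list was found in 15.7 to 27.7%, 25.1 to 31.6% and 20.1 to 36.9% of these genes. The counts are not adjusted for the number of peaks per gene.

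Lists of genes by role gave few hosts. Of the 16456 genes assigned a peak of any kind, 7.13% hosted a 5' UTR peak, 2.17% an LPS-up, 1.3% an LPS-down, 3.82% a Mel-up and 1.29% a Mel-down one. The 16456 include genes whose peaks all lay outside them, which could not be hosts, so these shares are low backgrounds. Among coding genes matched in GENCODE, 6937 held the centre of any peak and 1102 were hosts. Of the 20 m6A writers, erasers and readers with a peak, only Ythdf3 was a host, a cytoplasmic reader whose 5' UTR was up in Mel+LPS vs LPS at 10.1 (chr3:16183451-16183591, 286 bases from the transcription start). Its other exon peaks were mixed, with 1.37 and 1.68 up and 2.14 down in the same comparison. Of 25 translation initiation factors, 3 were hosts, all of Mel-up peaks. Pabpc1, which binds the poly(A) tail, had 4.004 (chr15:36608547-36608757), Mcts1 had 1.75 and Eif4g3 had 1.28. Of 20 genes with textbook control through their 5' UTR, Myc (2.66) and Vegfa (2.31) were hosts, again up in Mel+LPS vs LPS. Among 31 ribosomal protein genes Rps24 (1.84), Rpl34 (1.30) and Rpl15 (1.27) were up there at low scores.

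The link of 5' UTR m6A to cap-independent translation initiation was first described for heat shock transcripts. Of the 22 heat shock genes with a peak, 3 were hosts. Hsph1, the Hsp110 chaperone, was up in Mel+LPS vs LPS at 7.59 (chr5:149635828-149636008), where a peak was down in LPS vs Veh at 1.32. Hsf2, a heat shock transcription factor, was up at 5.83 (chr10:57484024-57484211) and 2.02, and Hspa12b was up at 2.36. All 3 genes stood in the Mel-up list and none in the Mel-down list, beside 3.82% and 1.29% of all genes with a peak. At 1.29%, none of 22 genes lies near the background.

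Of 38 genes of Toll-like receptor and NF-kB signalling, 3 were hosts (7.89%, near the 7.13% of all genes with a peak), each in the list of LPS-up peaks. Beside Tlr8, Ikbkb, a kinase of the IkB complex, had 4.16 (chr8:22705908-22706107) and 1.37, and Ripk1, a kinase of inflammatory and death signalling, had 2.38. Ripk1 also had a separate Mel-up peak at 2.40. In no gene of the list was a 5' UTR peak down in either comparison. Over all genes with a peak 1.3% were LPS-down and 1.29% Mel-down hosts, so none of 38 genes lies near the background. Within the lower Tlr8 peak, a Mel-down peak annotated to another exon stood at 1.32 (chrX:167243960-167244156). Of 25 immediate early and stress transcription factors, Fosb was up in LPS vs Veh at 5.29 (chr7:19309488-19309660) and down in Mel+LPS vs LPS at 3.65 (chr7:19309488-19309612), and its 3' UTR moved the same way, at 2.36 and 4.53. Jun was up in Mel+LPS vs LPS at 1.14.

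Of 29 genes of uterine receptivity and decidua, 4 were hosts, all of them up in Mel+LPS vs LPS. Beside Bmp2, Hand2, a stromal transcription factor that mediates progesterone action, was down in LPS vs Veh at 2.72 (chr8:57321393-57321641) and up in Mel+LPS vs LPS at 1.81 (chr8:57321443-57321642). Its first exon was also down in LPS vs Veh, at 1.64, and up in Mel+LPS vs LPS, at 1.42. Nr2f2, the stromal nuclear receptor COUP-TFII, had 2.30 and Runx1, a transcription factor, had 1.76 in Mel+LPS vs LPS. Cflar, an inhibitor of caspase-8, was the host among 29 autophagy and apoptosis genes (2.53 up in Mel+LPS vs LPS), and Csnk1d, a kinase of the circadian clock, the host among 11 clock and melatonin receptor genes (2.30 up). The tissue markers gave 3 hosts, with Dcn and Hand2 of 8 stromal markers, Krt19 of 7 epithelial markers (3.36, down in Mel+LPS vs LPS) and none of 9 smooth muscle or 6 leukocyte markers.

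Chromatin regulators had the most hosts of the lists by role, 12 of 41 genes with a peak (29.3%), in 4 lists. Over all genes assigned a peak the share was 7.13%, a low background as said above. Among coding genes matched in GENCODE, 6937 held the centre of any peak and 1102 were hosts. This list was also the longest, with 60 genes. Ezh2, the H3K27 methyltransferase, was up in Mel+LPS vs LPS at 9.85 (chr6:47554104-47554205), and Dnmt1, the maintenance DNA methyltransferase, at 8.45 (chr9:20941250-20941464). These peaks lay 23426 and 10445 bases from the transcription start. Kmt2b, an H3K4 methyltransferase, was up at 3.50 (chr7:30583794-30583929). Smarca2, a SWI/SNF ATPase, was down at 6.29 (chr19:26750941-26751130) and Kdm4b, an H3K9 demethylase, at 4.16 (chr17:56344439-56344627). Tet2, a 5-methylcytosine oxidase, was up in LPS vs Veh at 3.78 (chr3:133544050-133544225), and Kat6b was described above. Scores of Smarca2 and Tet2 are among the tied values. Brd3, Chd3, Chd8, Kat2a and Smarca4 had scores of 1.13 to 2.40. By list there were 4 LPS-up, 1 LPS-down, 6 Mel-up and 4 Mel-down genes, beside 2.17%, 1.3%, 3.82% and 1.29% of all genes assigned a peak. The share was not tested against other genes.

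The annotated position of the peaks was checked against GENCODE M21. The centre of a 5' UTR peak lay within its assigned gene in 89.5%, 87.8%, 89.7% and 90.9% of peaks in the 4 lists, beside 41.2 to 53.5% of all peaks. The median distance from the deposited transcription start was 612, 981.5, 642 and 502 bases, and 27.4 to 34.4% of host peaks lay within 200 bases. Of 1478 host peaks of matched genes, 716 (48.4%) touched a 5' UTR of any GENCODE coding transcript, 545 touched coding sequence but no 5' UTR and 217 touched neither. The share that touched was 68.7% where the deposited transcript was a curated RefSeq entry and 25.5% where it was a predicted one, and predicted transcripts made up 46.8% of host peaks. Peaks far from the main start site, such as those of Ezh2 and Bnc2, were annotated on predicted transcripts.

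The peak centres fell on annotated exons less often than centres displaced by a fixed distance. As deposited, 43.6% of centres lay on an exon and 21.4% on a 5' UTR. Moved 100 bases toward the 5' end of the gene, 81.7% lay on an exon and 44.3% on a 5' UTR. The profile of exon hits had its maximum at this displacement, and in each of the 4 lists the exon share rose, from 38.4 to 45.2% as deposited to 65.3 to 90.7%. The cause of this offset was not tested, and all positions are as deposited unless a move is stated.

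**Figure D4:**
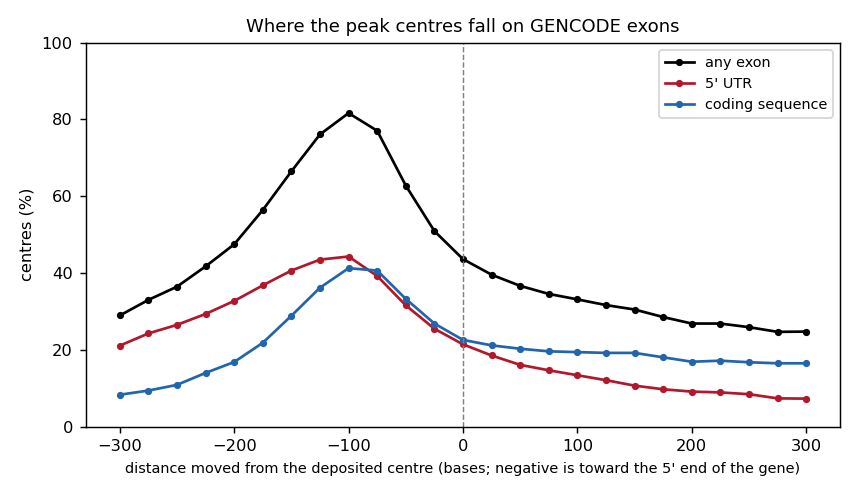
Percent of the 1478 host peak centres that fall on any GENCODE exon (black), a 5' UTR (red) or coding sequence (blue), against the number of bases by which the centre was moved along the gene. The black line reaches 81.7% at 100 bases toward the 5' end and stands at 43.6% at the deposited place (dashed line).

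On the spliced mRNA, 825 peaks covered at least 50 exonic bases and 508 of them touched the 5' UTR. Of these 508, 222 (43.7%) spanned the start codon, and the middle of the peak lay a median of 77.5 bases before the start codon (quartiles 221.25 and 3 bases before) and 292 bases from the cap. By list the median was 97 bases (95% interval 71 to 136) for LPS-up, 127 (52 to 192) for LPS-down, 62.5 (45 to 83) for Mel-up and 73 (38 to 122) for Mel-down peaks. Moved 100 bases toward the 5' end, 743 peaks touched the 5' UTR, and the medians were 127, 78.5, 90 and 101 bases in the same order, so the order of the lists depends on the placement. The annotated first base was reached by 31 of 508 peaks (6.10%) as deposited and by 141 of 743 (18.98%) after the move. As deposited, peaks that touched the first 100 bases made up 41.5% of 65 Mel-down peaks and 20.5% of 244 Mel-up peaks. The principal transcript of the host genes had a 5' UTR with a median of 224 bases (quartiles 120.25 and 399, 1102 genes), beside 178 bases in the 6937 genes that held any peak and 153 bases in all 21595 coding genes. Host genes were chosen by a 5' UTR annotation, so this is a description with no test.

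**Figure D5:**
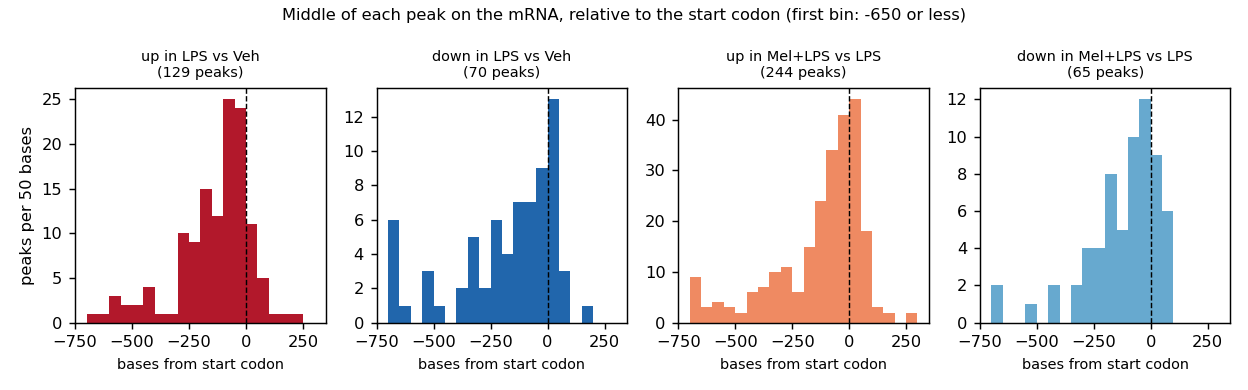
Distance in bases from the middle of each 5' UTR peak to the start codon on the spliced mRNA, as peaks per 50 bases, for the 508 peaks that touched a GENCODE 5' UTR at the deposited place; negative values are upstream. In each of the 4 lists most peaks lie in the stretch shortly before the start codon or on it.

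DRACH was somewhat denser within the peaks than beside them. The 825 peaks held 23.8 matches per 1000 bases and the sequence of equal length on either side 20.1, a ratio of 1.18 (1.13 to 1.24, counting error only). A match was present in 91.5% of peaks and in 89.9% of 818 downstream stretches of the same length, so its presence says little. The ratio was 1.12 (1.02 to 1.23) and 1.19 (1.05 to 1.35) for LPS-up and LPS-down peaks, and 1.21 (1.14 to 1.30) and 1.21 (1.04 to 1.39) for Mel-up and Mel-down peaks, with overlapping intervals. GGAC, which is part of many DRACH matches, had 6.93 per 1000 bases against 4.93, a ratio of 1.41 (1.28 to 1.54), and was present in 56.4% of peaks and 42.9% of downstream stretches. Only the mRNA strand was searched. Moved 100 bases toward the 5' end, the DRACH ratio over 1205 peaks was 1.07 (1.03 to 1.11) and the GGAC ratio 1.33 (1.23 to 1.44), so the placement bears on the first value more than on the second. Annotated 5' UTRs as a whole held 16.8 DRACH and 4.99 GGAC per 1000 bases, coding sequence 20.9 and 4.92, and 3' UTRs 20.4 and 2.89. Of the 825 peaks only 508 touched the 5' UTR, so the value for 5' UTRs alone is not a matched background.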

How the data were processed

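m6A-seq was performed on the uterus of Veh, LPS and Mel+LPS mice. Per the paper's methods and the labels, Fastp (trimming) and STAR 2.5.2a (alignment to mm10, GRCm38) were used by the authors, followed by exomePeak2 for peak calling, MACS2 for the comparisons and ChIPseeker 1.22.1 for annotation. How the replicates were combined is not given in the sources used here. The deposited score of each peak is unnamed and was used as deposited. The other deposited columns hold positions in bases.

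Peaks with the annotation 5' UTR were counted by list, direction and host gene. Overlap needed at least 1 base. GENCODE M21 transcripts gave mRNA positions and sequences. Of 1310 assigned genes, 1279 matched RefSeq of the same build, and all 1279 spans fitted. Intervals are 95% Wilson intervals, or counting intervals for ratios. No test was made, since no value per replicate exists, and depth is unknown. The steps were tested on simulated data (Python 3.11.15, numpy 2.4.6, pandas 2.3.3, scipy 1.17.1).

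Genes were named by rule: the 5 highest scores of each list, the 6 highest sites of each opposite pair, the 3 highest genes with both directions per comparison, genes in at least 3 lists, and members of the gene lists with a score of at least 3. Some genes that the rule names are not reported here. Further list members were named where counts were small, after their values were seen. The members and lists were chosen with earlier results of these data known. One incomplete last line and the rows after chromosome 9 of the list down in LPS vs Veh were left out. Alternatives were a higher score, 1 peak per gene, GENCODE classes, GGAC alone, and moved peaks.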

Additional observations from a re-analysis of the deposited data

How the results depend on the processing

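Of 56 alternative values, 37 stayed within the interval of the reported value and 19 did not. Counting 1 peak per gene and class gave 5' UTR shares of 4.03% for LPS-up peaks and 6.56% for Mel-up peaks. A score of at least 3 gave 3.59% for LPS-down peaks and 6.24% for Mel-up peaks. Classing each centre by GENCODE gave 0.857%, 0.591%, 0.945% and 0.575% for LPS-up, LPS-down, Mel-up and Mel-down peaks. The share that was up in LPS vs Veh became 50% at a score of at least 3 (all peaks 51.7%), 55.1% at 6 (53.6%) and 57.5% of 87 peaks by GENCODE class (49.8%), so its side of the background changed. In Mel+LPS vs LPS it became 68.3% (48.4%), 66.2% (54.7%) and 70.6% (59.3%), above the background each time. GGAC alone gave ratios of 1.29, 1.41 and 1.49 for LPS-up, LPS-down and Mel-up peaks. Peaks moved 100 bases gave DRACH ratios of 1.09 for Mel-up and 0.977 for Mel-down peaks. The exclusion of tied scores was chosen after seeing the data.

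No paired analysis was possible because the files give 1 score per peak and comparison and no value per replicate. For the same reason no replicate was left out. Depth is unknown, and absence from a list does not show that a site was unchanged.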

Other observations

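Zinc finger genes were found among the hosts. There were 289 genes with a symbol starting in Zfp that were assigned a peak of any kind. Of these, 46 (15.9%) hosted a 5' UTR peak, beside 7.13% of all genes assigned a peak. That background includes genes whose peaks all lay outside them, which could not be hosts. Among coding genes matched in GENCODE, 6937 held the centre of any peak and 1102 were hosts. The 7.13% therefore does not show that zinc finger genes were more frequent than other genes that hold peaks. They were spread over the lists, with 16 LPS-up, 8 LPS-down (chromosomes 1 to 9), 20 Mel-up and 13 Mel-down genes. The group was chosen after its values were seen and was not tested.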
